A study of Mus musculus with 3 samples.

Results

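The Polycomb repressive complexes were read through 10 genes, namely *Ezh1*, *Ezh2*, *Suz12*, *Eed*, *Rbbp4*, *Rbbp7* and *Jarid2* of Polycomb repressive complex 2 (PRC2), and *Bmi1*, *Ring1* and *Rnf2* of Polycomb repressive complex 1 (PRC1). They were taken by name from the 35562 genes to which the transcripts of the libraries were assigned, and all 10 were found. The libraries came from 3 myoblast lines, numbered 66, 67 and 72, which were grown from cells of mouse-mouse chimeras, animals that hold cells of a host embryo and of an injected stem cell line. Each line carried the *Dmd*mdx mutation, edited with CRISPR/Cas9 to correct it, together with *Pax7-nGFP*, a nuclear green fluorescent protein reporter driven by *Pax7*. These features are shared by all 3 libraries, so the lines form 1 condition with n = 3 and no untreated or unedited group was compared. The sample labels do not say whether the lines came from separate chimeras, so the spread between them may be in part technical. Per the study's methods the edited induced pluripotent stem cells were picked as clones and satellite cells were sorted from chimeras with or without tamoxifen treatment, which removes host satellite cells, but the clone, the treatment and the age of the animal behind each line are not in the labels.

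Polycomb complexes keep developmental genes silent by modifying histones. PRC2 methylates histone H3 on lysine K27 through EZH2 or its paralog EZH1, and needs SUZ12 and EED for this activity, while RBBP4 and RBBP7 bind histones in it and in other chromatin complexes. PRC1 places ubiquitin on histone H2A through RNF2 (RING1B) or RING1, each paired with a PCGF protein such as BMI1. EZH2 is known for its high level in dividing cells and in proliferating muscle progenitors, and EZH1 for its presence in resting and differentiated cells, including muscle.

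*Ezh2* and *Ezh1* turned out to be the members farthest apart within a paralog pair, and their promoters are shown for this reason (RefSeq, GRCm38.p6, 250 bases before to 50 bases after the transcription start, 5′ to 3′ on the gene's strand). Capitals mark matches, on either strand, to the E2F words TTTGGCGC and TTTCGCGC or to the word CCAAT, which were picked after the *Ezh2* sequence had been seen. The 2 windows lie on the minus strand at chr6:47594981-47595280 and chr11:101226414-101226713.
Ezh2: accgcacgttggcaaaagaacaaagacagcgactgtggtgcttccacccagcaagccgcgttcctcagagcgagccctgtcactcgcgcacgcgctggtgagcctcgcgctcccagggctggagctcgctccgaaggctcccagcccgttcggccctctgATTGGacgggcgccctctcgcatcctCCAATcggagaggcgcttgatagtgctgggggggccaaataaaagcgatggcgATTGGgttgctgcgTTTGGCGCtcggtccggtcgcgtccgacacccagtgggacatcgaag
Ezh1: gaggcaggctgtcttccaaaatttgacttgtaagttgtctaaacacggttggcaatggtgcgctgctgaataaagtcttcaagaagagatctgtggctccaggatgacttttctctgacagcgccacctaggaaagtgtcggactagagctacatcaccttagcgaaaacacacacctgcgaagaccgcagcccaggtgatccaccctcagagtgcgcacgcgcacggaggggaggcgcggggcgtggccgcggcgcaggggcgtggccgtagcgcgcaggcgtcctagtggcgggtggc

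The *Ezh2* window held 1 E2F word, with its first base at position 4 after the start, and CCAAT words with their first bases at positions -90, -64 and -11. The *Ezh1* window held neither word. E2F factors are activators and repressors of genes used in DNA replication and division, and CCAAT is the word bound by NF-Y. Of all 32851 promoters in the same table, 0.813% held an E2F word, 37.4% held CCAAT and 3.37% held at least 3 CCAAT matches. The other members, *Jarid2* with 2 listed starts, had no E2F word, and CCAAT was found in the windows of *Eed*, *Jarid2*, *Rbbp4*, *Rbbp7* and *Suz12*. CpG dinucleotides numbered 31 in the *Ezh2* and 23 in the *Ezh1* window, beside a median of 7 over all promoters. The 11 windows of the members ran from 17 (*Eed*) to 41 (*Suz12*), with a median of 30. A match is a description of letters, and binding was not measured.

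The lines were first checked against their label. Total estimated counts were between 66972426 and 73274315 per library. TPM is the estimated count of a transcript divided by its effective length and scaled to 1000000 per library, and it was summed over the transcripts of a gene. All 6 myoblast markers were above 10 TPM in every line, from *Myf5* (109.5 TPM on average) to *Myod1* (690.3 TPM), with *Pax7* at 136, 143 and 154 TPM in lines 66, 67 and 72. The 7 markers of immune, endothelial, fibroblast and fat cells reported here each had a mean under 1 TPM, and among them *Adipoq* had at most 2 counts and *Lum* had none in any line. Where no read was counted, a true level worth at most 3 counts cannot be told from 0, for counting error alone. In such bulk libraries, fewer cells of a type and less RNA per cell cannot be told apart.

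Among the 2 catalytic subunits of PRC2, *Ezh2* was the abundant one. *Ezh2* (chromosome 6, 47530139 to 47595341 on GRCm38) had 110.3, 109 and 139 TPM in lines 66, 67 and 72, a mean of 119.6 ± 16.9 TPM (SD, n = 3). *Ezh1* (chromosome 11, 101191115 to 101226463) had 8.44, 6.34 and 6.83 TPM, a mean of 7.20 ± 1.10 TPM (SD, n = 3). The ranges of the 2 genes did not come near each other, and the lowest *Ezh1* library still held 886 estimated counts, so *Ezh1* was present in every line. Among the 25510 detected genes, 94.7% had a lower mean TPM than *Ezh2* and 64.0% a lower one than *Ezh1*.

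The ratio of *Ezh2* to *Ezh1* TPM was 13.1, 17.3 and 20.4 in lines 66, 67 and 72. On the log2(TPM + 1) scale, *Ezh2* exceeded *Ezh1* by 3.56, 3.91 and 4.16, a mean of 3.88 ± 0.30 (SD, n = 3). It was higher in 3 of 3 lines (exact sign-flip permutation test, two-sided p = 0.25, and 0.25 after Benjamini-Hochberg adjustment over the 4 paralog pairs compared, which is the smallest p that 3 lines allow). The 2 genes share no word of 31 bases, the word length with which kallisto assigns reads by default.

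The size of this ratio depended on how transcripts were counted. Each gene has short listed transcripts that hold few reads but, once divided by a small effective length, a sizeable share of the TPM. With protein-coding transcripts of at least 1000 bases alone, *Ezh2* had 66.5, 68.1 and 88.9 TPM, *Ezh1* had 5.94, 4.63 and 5.07 TPM, and the ratio was 11.2, 14.7 and 17.5. As estimated counts per kilobase of the longest coding transcript, a scale without bias-corrected lengths, the ratio was 8.56, 11.6 and 13.3. On each of these scales line 66 had the lowest ratio and line 72 the highest, as the plot of paralog ratios shows.

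**Figure D1:**
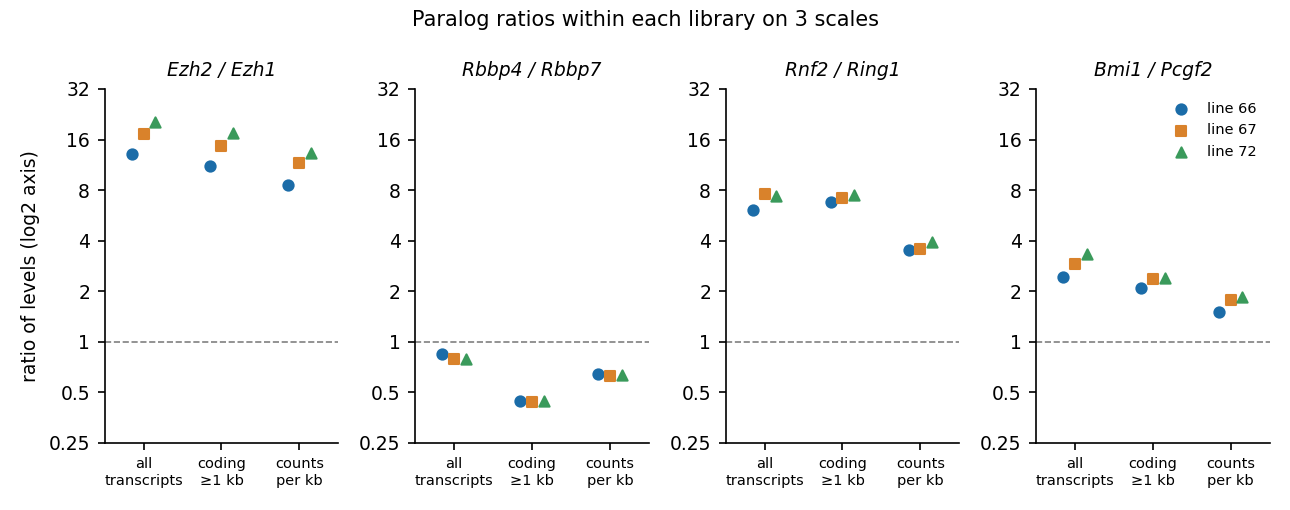
Ratio of the levels of 2 paralogs within each library (log2 axis), on 3 scales: TPM of all transcripts, TPM of coding transcripts of at least 1 kb, and counts per kilobase of the longest coding transcript. Points are lines 66, 67 and 72, and the dashed line marks equal levels. *Ezh2* over *Ezh1* sits between 8.56 and 20.4, and *Rbbp4* over *Rbbp7* is the pair below 1.

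*Ezh2* and *Ezh1* lie on chromosomes whose genes as a whole differed between lines. Here and below, the log2 ratio is log2(TPM + 1) of a line minus the mean of the other lines. In each line, the median ratio of all genes averaging 10 TPM or more was taken off. These ratios therefore differ somewhat from those made with the printed TPM alone. The median log2 ratio of chromosome 11 genes was 0.32 in line 66 relative to the other lines (95% interval 0.31 to 0.34 over 699 genes, which are not independent replicates), and *Ezh1* had 0.37 in that line. For chromosome 6 it was 0.15 in line 72 (0.13 to 0.18 over 398 genes), where *Ezh2* had 0.28. After the median of its chromosome in each line was taken off each gene, the *Ezh2* to *Ezh1* ratio was 17.6, 15.7 and 16.7 in lines 66, 67 and 72, with a mean of 16.7 ± 0.950 in place of 16.9 ± 3.66 (SD, n = 3). The order of the lines was then no longer the same, with line 66 the highest. The part of the chromosome medians in the ratio was not tested further.

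*Suz12* and *Eed*, the subunits without which PRC2 has no activity, were not found at one level. *Suz12* (chromosome 11, 79993106 to 80034123) had 97.5, 77.3 and 81.6 TPM, a mean of 85.5 ± 10.6 TPM (SD, n = 3). It was highest in line 66, with a log2 ratio of 0.35 relative to all genes, and lowest in line 67. *Ezh1*, which lies on the same chromosome, had the same order of lines. *Eed* (chromosome 7, 89954654 to 89980983) had 39.7, 46.5 and 47.6 TPM, a mean of 44.6 ± 4.25 TPM (SD, n = 3), and was lowest in line 66. The level of *Ezh2* relative to *Suz12* was 1.13, 1.41 and 1.70 in TPM, and that of *Eed* relative to *Suz12* was 0.407, 0.601 and 0.583. In counts per kilobase, *Ezh2* had 0.966, 1.24 and 1.55 of the *Suz12* level, below it in line 66, and *Eed* had 0.168, 0.291 and 0.288.

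Most of the *Eed* TPM did not come from full-length coding transcripts. Coding transcripts of at least 1000 bases made up between 11.2% and 18.5% of its TPM, and between 35.2% and 49.4% of its counts. The transcript with the most TPM was Eed-203, a retained intron of 491 bases, with 13.7, 13.7 and 14.4 TPM. Eed-201, the coding transcript of 2067 bases, had 3.71, 7.55 and 7.95 TPM. With coding transcripts of at least 1000 bases alone, *Eed* had 4.47, 8.02 and 8.78 TPM, or 0.0680, 0.151 and 0.161 of the *Suz12* level on the same scale, and line 66 was 1.97-fold below line 72. Total *Eed* counts were 933, 1178 and 1235, and scaled to the library total they differed less, by 1.38-fold. E230029C05Rik, which overlaps *Eed* on the opposite strand, shares 5.96% of its 31-base words and had at most 26 counts. The tables give no error for the split of reads between transcripts.

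The histone-binding subunits were the most abundant members. *Rbbp7* (chromosome X, 162760402 to 162779092) had 369, 414 and 403 TPM, a mean of 395 ± 23.4 TPM (SD, n = 3). *Rbbp4* (chromosome 4, 129307100 to 129335370) had 312, 328 and 316 TPM, a mean of 319 ± 8.50 TPM (SD, n = 3). The highest *Rbbp4* library was below the lowest *Rbbp7* library. On the log2(TPM + 1) scale, *Rbbp4* minus *Rbbp7* was -0.24, -0.33 and -0.35, a mean of -0.31 ± 0.06 (SD, n = 3), negative in 3 of 3 lines (exact sign-flip permutation test, two-sided p = 0.25, adjusted p = 0.25). This order holds per length only, since *Rbbp4*, whose main transcript is longer, had more counts than *Rbbp7* in every line (34222, 34297 and 34338 against 27276, 27955 and 27601), and on the log2(CPM + 1) scale (counts per 1000000, with no length term) the difference was 0.31. With coding transcripts of at least 1000 bases the *Rbbp4* to *Rbbp7* ratio was 0.444, 0.439 and 0.441, a scale that leaves out Rbbp4-203, a noncoding transcript of 722 bases with 107, 103 and 98.0 TPM. Overlapping genes on the opposite strand share 8.24% of the 31-base words of *Rbbp4* (*Sync*, with up to 5836 counts) and 4.91% of those of *Rbbp7* (*Txlng*, with up to 1415 counts). A part of these levels is therefore uncertain, and its size was not measured, since a share of words is not a share of reads.

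*Jarid2*, an accessory subunit that helps to bring PRC2 to chromatin, was among the lowest members. It had 7.28, 6.93 and 8.81 TPM in lines 66, 67 and 72 (chromosome 13, 44729474 to 44921643), a mean of 7.67 ± 1.002 TPM (SD, n = 3). Its range overlapped with that of *Ezh1*, and it had at most 0.108 of the *Suz12* TPM in any line. Line 72 held the highest value. The main transcript, Jarid2-208 of 5997 bases, varied less, with 3.57, 4.03 and 3.86 TPM.

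**Figure D2:**
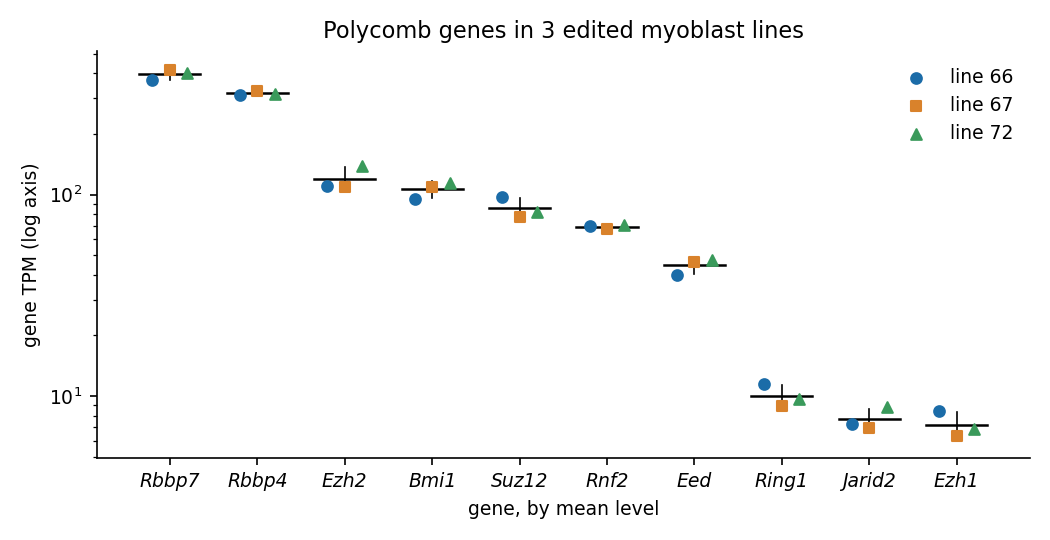
Gene TPM (log axis) of the 10 Polycomb genes in lines 66, 67 and 72, ordered by mean. Horizontal bars are means and vertical bars the SD over the 3 lines. *Rbbp7* and *Rbbp4* lie above 300 TPM in every line, and *Ring1*, *Jarid2* and *Ezh1* lie near or below 10 TPM.

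In PRC1, *Rnf2* was the more abundant of the paired ubiquitin ligases. *Rnf2* (chromosome 1, 151458004 to 151500955) had 69.9, 67.3 and 70.9 TPM, a mean of 69.4 ± 1.85 TPM (SD, n = 3). *Ring1* (chromosome 17, 34020792 to 34024680) had 11.5, 8.90 and 9.67 TPM, a mean of 10.01 ± 1.32 TPM (SD, n = 3). The lines were almost level for *Rnf2*, whereas *Ring1* was highest in line 66. Its log2 ratio there, relative to all genes, was 0.33, with a median of 0.02 for chromosome 17. Ring1-201, its one coding transcript, was closer to level with 7.92, 7.27 and 7.70 TPM, and the retained intron Ring1-202 had 2.71, 0.932 and 1.38 TPM. *Rnf2* exceeded *Ring1* by 2.68 ± 0.15 on the log2(TPM + 1) scale (SD, n = 3), with ratios of 6.10, 7.56 and 7.33 (exact sign-flip permutation test, two-sided p = 0.25, adjusted p = 0.25, higher in 3 of 3 lines). Counted per kilobase of the longest coding transcript, the ratio was 3.53, 3.58 and 3.90. *Rnf2* shares 3.06% of its 31-base words with *Trmt1l*, which overlaps it on the opposite strand and had up to 2823 counts.

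*Bmi1*, the PCGF protein known for repressing the *Cdkn2a* locus, had 95.2, 109.6 and 114 TPM (chromosome 2, 18677018 to 18686629), a mean of 106 ± 9.84 TPM (SD, n = 3). Its range overlapped with those of *Ezh2* and *Suz12*. *Pcgf2* (Mel18, chromosome 11), its closest paralog, had 39.1, 37.8 and 34.1 TPM, a mean of 37.0 ± 2.56 TPM (SD, n = 3). *Bmi1* exceeded *Pcgf2* by 1.26, 1.51 and 1.71 on the log2(TPM + 1) scale, a mean of 1.495 ± 0.22 (SD, n = 3; exact sign-flip permutation test, two-sided p = 0.25, adjusted p = 0.25, higher in 3 of 3 lines). Per kilobase of the longest coding transcript, *Bmi1* was 1.5, 1.77 and 1.85 times *Pcgf2*. *Pcgf2* had log2 ratios of 0.17, 0.06 and -0.23 in lines 66, 67 and 72, beside chromosome 11 medians of 0.32, -0.18 and -0.13. With these medians taken off, its levels were 1.38-fold apart in place of 1.14-fold. The main transcript, Bmi1-202, had 52.3, 59.4 and 56.4 TPM, and the short coding Bmi1-206 of 521 bases had 13.6, 17.4 and 27.6 TPM. Lines 67 and 72 thus swapped places between the whole gene and its main transcript, and line 66 was lowest in each.

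**Figure D3:**
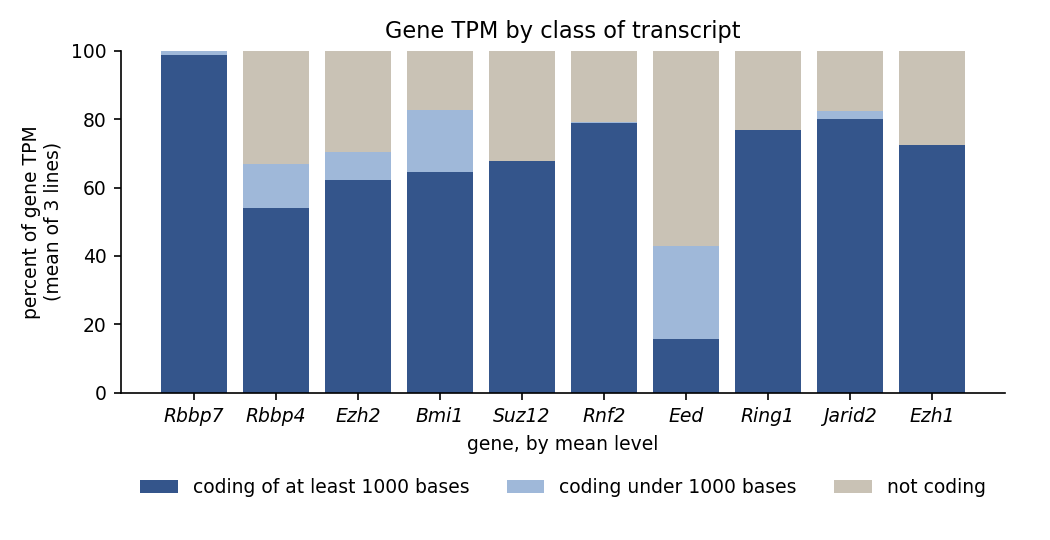
Share of gene TPM (percent, mean of the 3 lines) in coding transcripts of at least 1000 bases, coding transcripts under 1000 bases and transcripts that are not coding, for the 10 genes ordered by mean level. *Eed* is the gene with the smallest share in long coding transcripts, at most 18.5% in any line, and *Rbbp7* the one with the largest, at least 98.1%.

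Ordered by mean TPM, the members ran from *Rbbp7* through *Rbbp4*, *Ezh2*, *Bmi1*, *Suz12*, *Rnf2*, *Eed*, *Ring1* and *Jarid2* to *Ezh1*. Neighbours whose ranges over the lines overlapped were *Ezh2* and *Bmi1*, *Bmi1* and *Suz12*, and *Jarid2* and *Ezh1*, so these do not differ beyond their spread in TPM. Every other neighbouring pair kept its order in 3 of 3 lines. In CPM per kilobase of the longest coding transcript, *Ezh2* (35.5, 36.4 and 45.6) did not overlap with *Bmi1* (25.4, 28.6 and 26.9). *Suz12* (36.7, 29.3 and 29.5) was above *Bmi1* in every line on that scale, the reverse of their order by mean TPM. With coding transcripts of at least 1000 bases the order of the means was the same apart from *Eed*, at rank 8 in place of 7, below *Ring1*. That change rests on line 66, since *Eed* was above *Ring1* in lines 67 and 72 on this scale and their ranges overlapped. The median level of the 10 members was 77.4 TPM, with *Ezh1* and *Jarid2*, which averaged under 10 TPM, included. The median was 36.8 TPM over the 8428 genes that averaged 10 TPM or more, and 0.861 TPM over all 25510 detected genes.

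Between lines, the members kept within 1.33-fold in TPM. *Ezh1* and *Jarid2* averaged under 10 TPM, and of the other 8 members 0 were more than 1.5-fold apart between the highest and the lowest line, where 9.79% of all 8428 genes at that level were. With 1 line left out that share was 3.61% (without line 66), 5.70% (without line 67) or 5.65% (without line 72), with 0 members each time. At a threshold of 2-fold these were 0 of 8 members and 2.47% of the genes. Over the 12524 genes averaging 1 TPM or more with a value above 0 in every line, 19.6% were more than 1.5-fold apart and 0 of the 10 members. The highest fold among the members was 1.33 for *Ezh1* and the lowest 1.05 for *Rbbp4*. The median fold of the 8 members was 1.198 and that of all 8428 genes was 1.18, so the members were about as far apart as other genes. When coding transcripts of at least 1000 bases alone were used, 1 of 8 members, *Eed*, was over the threshold, with 10.1% of 7814 genes. Counting error, at most 3.45% of the count in any member and line, was in each member smaller than its SD over the lines. The biological coefficient of variation that edgeR fitted in common to the 8428 genes, after rounding of their counts, was 0.150.

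**Figure D4:**
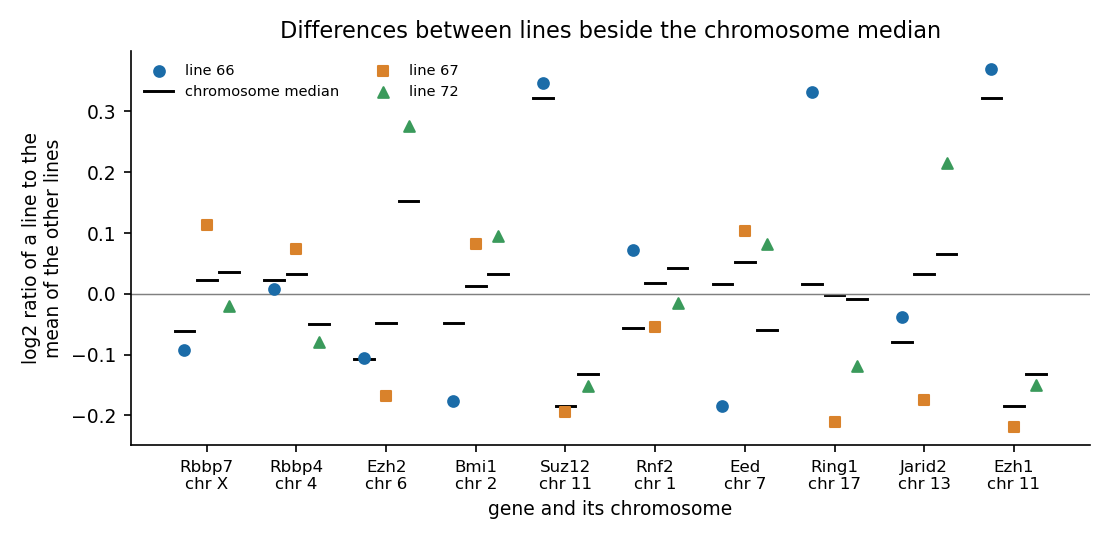
Log2 ratio of each line to the average of the remaining lines for the 10 genes (points), relative to the median of all genes, beside the median of the genes of the same chromosome (black bars). *Suz12* and *Ezh1*, both on chromosome 11, follow the chromosome median in all 3 lines, at 0.35 and 0.37 against 0.32 in line 66, whereas *Ring1* in line 66 (0.33) is away from its chromosome (0.02).

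Cell division genes were read beside these values, because *Ezh2* is known to be high in dividing cells. The summed level of 8 such genes was 915, 1211 and 1201 TPM in lines 66, 67 and 72, from *Mki67*, the lowest on average with 35.6, 64.1 and 54.3 TPM, to *Pcna*, the highest with 281, 366 and 380.4 TPM. *Ccnb1* and *Ccna2* were, with *Mki67*, over 1.5-fold apart and lowest in line 66. *Ezh2* was alike in lines 66 and 67 and highest in line 72. With the chromosome 6 median of each line taken off, it had 119, 113 and 125 TPM. The differentiation gene *Myog* was highest in line 72, at 310 TPM, against 168 and 222 TPM in lines 66 and 67. A part of any of these in the levels of the members was not tested.

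The other 46 genes of the Polycomb machinery, from lists of its complexes, had a median of 18.4 TPM. Of these, 32 averaged 10 TPM or more and 44 averaged 1 TPM or more, and 0 of the 32 were more than 1.5-fold apart between lines, beside 9.79% of all genes at that level. Among the PRC2 accessory subunits, *Aebp2*, which works together with *Jarid2*, had 119.7, 149.8 and 143.5 TPM, above *Jarid2* in every line. *Mtf2* (45.1 ± 2.49 TPM) was the highest of the 3 Polycomb-like genes, above *Phf1* (14.6 ± 0.635 TPM) and *Phf19* (2.53 ± 1.54 TPM; SD, n = 3 each), but with coding transcripts of at least 1000 bases *Mtf2* had 11.5, 12.9 and 16.2 TPM and *Phf1* 11.4, 12.0 and 12.3 TPM, still higher for *Mtf2* in 3 of 3 lines but closer. *Phf19* was 2.92-fold apart between lines, although its counts were 250, 323 and 274, and Phf19-205 of 351 bases held 2.503 TPM in line 67 from 18.8 counts. *Epop* (chromosome 11) had 2.76, 1.47 and 1.52 TPM. *Ezhip* (AU022751), an inhibitor of PRC2 that is normally active in germ cells, had 0 counts in all 3 lines.

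Among PCGF genes, *Bmi1* and *Pcgf3* (66.7 ± 7.98 TPM) were the highest and *Pcgf1* (7.98 ± 0.714 TPM; SD, n = 3 each) the lowest. The CBX proteins read the mark of PRC2 in canonical PRC1, and of their 5 genes only *Cbx6* averaged 10 TPM or more. *Cbx6* had 19.1 ± 1.86 TPM and *Cbx7* was last with 4.12 ± 0.910 TPM (SD, n = 3 each). *Cbx8* had 5.93, 3.53 and 5.01 TPM and was 1.68-fold apart between lines, and *Cbx7* was 1.52-fold apart. *Phc2*, a subunit through which PRC1 forms larger assemblies, had 150.9, 134 and 120.2 TPM, while *Scml2* was lowest of that list with 2.28 ± 0.202 TPM (SD, n = 3). In variant PRC1, which lacks CBX proteins, 10 of 11 genes averaged 10 TPM or more, from *Tfdp1* with 178 ± 21.9 TPM down to *Bcorl1* with 8.07 ± 0.420 TPM (SD, n = 3 each).

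The enzymes that oppose these complexes were present as well. *Bap1*, which removes ubiquitin from histone H2A, had 44.6 ± 4.08 TPM, and *Ogt* was the highest gene of its complex with 79.6 ± 5.37 TPM (SD, n = 3 each). *Asxl1* and *Asxl2*, partners of BAP1, had 30.1 ± 1.14 and 21.4 ± 2.72 TPM, whereas *Asxl3* had 5.68, 2.53 and 47.0 counts. Of the demethylases of the PRC2 mark, *Kdm6b* (chromosome 11) had 22.3, 17.3 and 19.3 TPM and *Kdm6a* 15.5, 18.0 and 17.3 TPM, so their ranges overlapped.

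**Figure D5:**
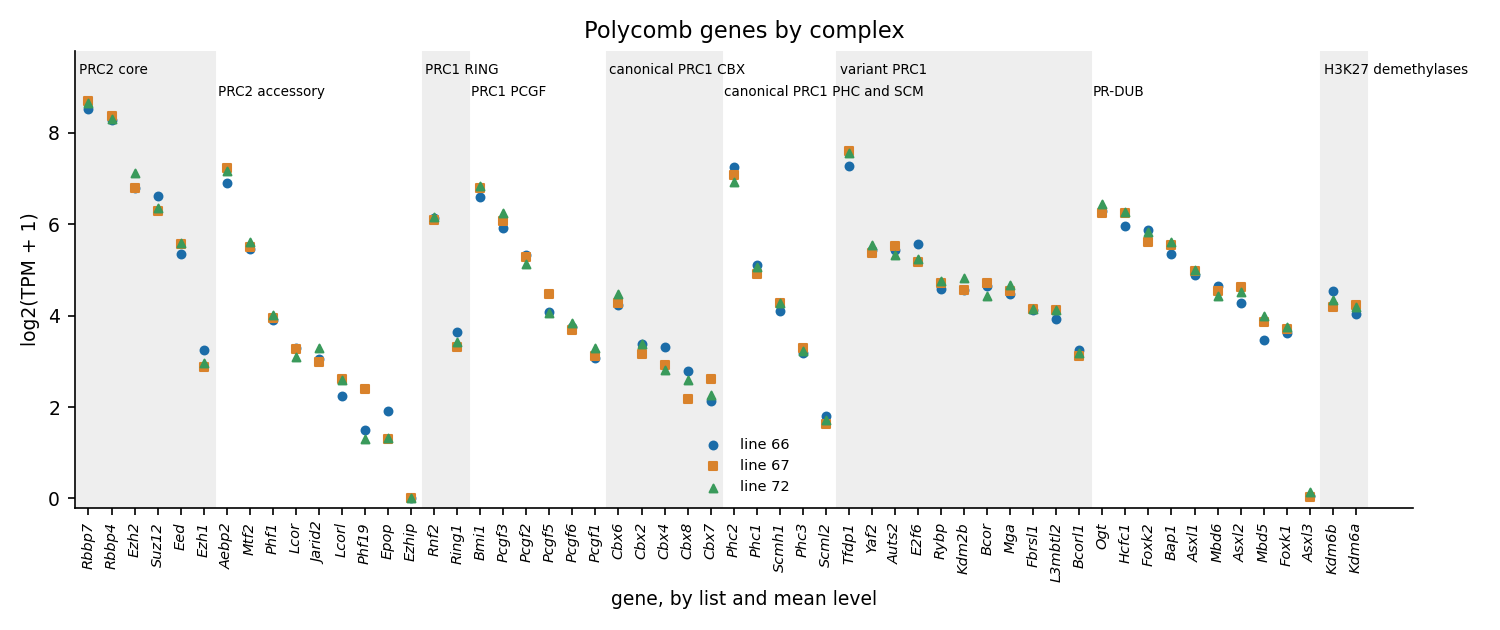
Level of 56 Polycomb genes, as log2(TPM + 1), in lines 66, 67 and 72, grouped by complex (shaded and white bands) and ordered by mean within each. *Ezhip* lies at 0 in every line, *Asxl3* close to it, and the CBX genes lie below the *Rnf2* and *Bmi1* levels of the same complex.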

How the data were processed

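RNA-seq libraries of 3 edited myoblast lines were used, 1 per line. Per the labels, they were stranded libraries of poly-A-enriched RNA, and the submitters' processing notes name bcl2fastq 2.20, fastp 0.20, kallisto 0.46.1 and the build GRCm39. The annotation and the strand setting are not given in the sources used here. The authors deposited an estimated count per transcript, in which reads that fit several transcripts are split, and a TPM value made from it and from an effective length in bases. Effective lengths differ between libraries and exceed the annotated length for 22208 transcripts in line 66.

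Identifiers were looked up in the M21 release of GENCODE (GRCm38), the source of all gene coordinates. Of 121798 transcripts, 1112 had no match (at most 0.535% of counts) and were left out. Estimated counts and TPM were summed per gene. Paralogs were compared within each library on the log2(TPM + 1) scale with an exact sign-flip permutation test over the lines. Lines were not tested against each other, since each has 1 library, and folds between lines use TPM without a pseudocount. Gene counts of any 2 lines differed far beyond sampling noise. Named are all members, the highest and lowest gene of each further list, genes over 1.5-fold apart between lines and genes at or under 3 counts. *Mtf2*, *Phf1*, *Asxl1*, *Asxl2*, *Bap1*, *Pcgf3*, *Pax7*, *Cdkn2a*, *Cdkn2b* and *Gata6* were named after their values were seen. The members and lists were chosen with earlier results of these data known. One marker of the list for other cell types is not reported here. The methods were tested on simulated counts. The tools were Python 3.11.15, pandas 2.3.3, scipy 1.17.1, edgeR 4.0.16 and DESeq2 1.42.0, the last for size factors only. Alternatives were a pseudocount of 0.1, CPM, coding transcripts only, the chromosome median taken off, other filters, thresholds and scalings, and leaving out each line.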

Additional observations from a re-analysis of the deposited data

How the results depend on the processing

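The excess of *Ezh2* over *Ezh1* was between 2.78 and 4.04 on the log2 scale under each alternative, 3.74 to 4.04 with each line left out. That of *Rnf2* over *Ring1* was 1.73 to 2.79, and that of *Bmi1* over *Pcgf2* 0.73 to 1.61. *Rbbp4* minus *Rbbp7* reversed with CPM, to 0.31, which follows from leaving out the division by length, and lay between -1.18 and -0.29 otherwise. The exact p was 0.25 in each case, or 0.50 with 2 lines, so it says nothing about stability. The number of members over 1.5-fold apart was 1 (*Eed*) with coding transcripts of at least 1000 bases and 0 under the other settings in which it was counted. It was not counted with all protein-coding transcripts, but *Eed* was 1.56-fold apart there and so over the threshold as well. The alternative of 1000 bases, and counts per kilobase of the longest coding transcript, were chosen after seeing the data.

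The median level of the members was 77.4 TPM, 86.2 with CPM, 56.4 with protein-coding transcripts only, 56.2 with those of at least 1000 bases, and 25.3 CPM per kilobase. It stayed between 74.3 and 80.0 TPM with each line left out. The common biological coefficient of variation was 0.198 with genes of at least 1 TPM in place of 0.150, and between 0.120 (without line 66) and 0.162 with each line left out. The chromosome 11 median in line 66 and the chromosome 6 median in line 72, the ones recomputed, moved within their 95% intervals under another filter and scaling. Of 70 levels of single members under an alternative, 35 moved by more than 1 SD. Of the 10 members, 7 moved with CPM, 9 with protein-coding transcripts only, and 9 with those of at least 1000 bases. All 10 moved with counts per kilobase. Leaving out 1 of 3 lines cannot move a mean by that much, so the levels with a line left out say nothing about stability. No paired analysis was possible because there is 1 group, so that line numbers pair no samples across groups. The paralog tests compare genes within a library. Depth limits genes at or near 3 counts, such as *Ezhip* and *Gata6*, and short transcripts with few counts, such as Phf19-205.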

Other observations

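Genes that Polycomb complexes are known to keep silent in many cell types were read beside the complexes. Of 16 such genes, 7 had at most 3 counts in every line, among them *Sox17*, *Neurog1*, *Neurog2*, *Olig2*, *Nkx2-5* and *Hand1*, each with a count of 0, and *T* with at most 1 count. Of all 35562 genes 40.4% were at that level, so 7 of 16 is near the background. A further 4 of the 16 averaged 10 TPM or more, namely *Myog*, *Cdkn2a*, *Cdkn2b* and *Gata4*, beside 23.7% of all genes. The list was chosen from general knowledge, but with earlier results of these data known, and histone marks were not measured.

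The *Cdkn2a* locus, which encodes the cell cycle inhibitors p16INK4a and p19ARF, had 175, 125 and 160.4 TPM in lines 66, 67 and 72. This was above *Bmi1* per length in each line, but both transcripts are short (852 and 895 bases), and in counts *Cdkn2a* (6831, 4538 and 5783) was below *Bmi1* (6696, 6892 and 6790) in lines 67 and 72. Its transcripts differ in their first exon. Cdkn2a-202, which starts farther upstream (chromosome 4, minus strand, 89294653) as the ARF transcript does, had 71.3, 69.7 and 70.4 TPM. Cdkn2a-201, which starts at 89282192 as the INK4a transcript does, had 103.8, 55.4 and 90.1 TPM, and was thus the more variable of the 2. *Cdkn2b*, which lies beside it, had 27.7, 21.4 and 27.9 TPM and was also lowest in line 67.

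*Gata4* had 22.1, 14.7 and 8.44 TPM, a 2.62-fold range, and was highest in line 66. *Foxa2* had 235, 8 and 10 counts, so that nearly all of its reads were in line 66. *Pax6* and *Lhx2* were highest in line 66 as well, with 53.2 and 53.0 counts, and *Eomes* was lowest there, with 37 counts. *Gata6* had 8, 0 and 10 counts.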
